A study of Mus musculus with 6 samples.

Results

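Interferon-high neutrophils were a small set of tumour neutrophils with a strong interferon signature, 478 cells among 21235 neutrophils and 74546 cells in 4 libraries. They were chosen by measured values, so the levels of their rule genes are given as a description. A barcode counted as a cell with at least 500 UMIs (molecular tags that count each captured transcript once), more than 200 genes and under 10% mitochondrial UMIs. A neutrophil had at least 1% of its UMIs in S100a8, S100a9, Csf3r, Cxcr2, Hdc and Il1r2 together, at most 1 UMI of C1qa, C1qb and C1qc, and 0 UMIs of Krt8 and Krt18. It was called interferon-high when Rsad2, Ifit1, Ifit3 and Isg15, called the rule genes here, made up at least 0.5% of its UMIs. The remaining 20757 neutrophils are called other neutrophils.

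The cells came from orthotopic pancreatic tumours in C57BL/6 mice 6 to 8 weeks old, taken 4 weeks after KPC cells were injected into the pancreas, with 1 tumour per library. KPC cells are mouse pancreatic cancer cells from a model driven by Cre under the Pdx1 promoter, with p53 R172H among their alleles. All groups share this background. They differed in what the injected cells carried, an empty vector (OE-Vector) or mouse MLKL overexpression (OE-MLKL), so only the cancer cells were altered and the neutrophils were those of the host. MLKL is the executioner of necroptosis, a lytic form of cell death. By their labels there were 6 samples, 3 per group. Count matrices were analysed for OE-Vector 1 and for OE-MLKL 1, 2 and 3, and the matrices of OE-Vector 2 and 3 were not analysed here. With 1 OE-Vector library, a difference between the groups cannot be told apart from a difference between tumours. Below, a run of 4 values follows the order OE-Vector 1, OE-MLKL 1, OE-MLKL 2 and OE-MLKL 3.

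Type I interferons bind the receptor made of Ifnar1 and Ifnar2, and the kinases Jak1 and Tyk2 then phosphorylate STAT factors, Stat2 among them, which join Irf9 in the complex ISGF3. ISGF3 binds interferon-stimulated response elements before the start of many genes whose products block viral replication. Neutrophils are short-lived granulocytes that respond to interferon, and a state with high levels of such genes is known from neutrophils of blood, infection and tumours.

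The promoters of the rule genes are shown because the genes that chose the cells share a sequence feature. Each sequence holds 250 bases before the annotated start and 50 bases from it, read 5′ to 3′ on the strand of the gene, from RefSeq on GRCm38.p6. Capitals mark matches to GAAANNGAAA on either strand, a pattern of the interferon-stimulated response element. A match on the opposite strand reads as its reverse complement, and overlapping matches form 1 run of capitals.
Rsad2, chr12:26456403-26456702, minus strand: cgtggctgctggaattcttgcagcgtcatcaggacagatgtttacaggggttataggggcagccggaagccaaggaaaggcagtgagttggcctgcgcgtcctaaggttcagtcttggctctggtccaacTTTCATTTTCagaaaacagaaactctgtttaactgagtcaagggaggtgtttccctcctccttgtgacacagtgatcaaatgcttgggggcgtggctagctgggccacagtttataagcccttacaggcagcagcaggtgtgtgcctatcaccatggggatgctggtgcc
Ifit1, chr19:34640639-34640938, plus strand: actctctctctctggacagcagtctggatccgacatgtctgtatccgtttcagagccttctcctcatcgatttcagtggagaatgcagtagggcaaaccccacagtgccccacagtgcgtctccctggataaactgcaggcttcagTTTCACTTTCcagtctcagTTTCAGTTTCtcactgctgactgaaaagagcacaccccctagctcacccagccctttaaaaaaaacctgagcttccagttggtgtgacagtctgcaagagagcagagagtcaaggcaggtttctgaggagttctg
Ifit3, chr19:34583279-34583578, plus strand: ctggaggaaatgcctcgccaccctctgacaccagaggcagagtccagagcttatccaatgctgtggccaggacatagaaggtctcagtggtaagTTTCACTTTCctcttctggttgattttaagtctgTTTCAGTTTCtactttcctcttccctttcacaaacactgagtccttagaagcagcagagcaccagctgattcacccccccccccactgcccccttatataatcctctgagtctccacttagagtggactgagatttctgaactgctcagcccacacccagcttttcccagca
Isg15, chr4:156200769-156201068, minus strand: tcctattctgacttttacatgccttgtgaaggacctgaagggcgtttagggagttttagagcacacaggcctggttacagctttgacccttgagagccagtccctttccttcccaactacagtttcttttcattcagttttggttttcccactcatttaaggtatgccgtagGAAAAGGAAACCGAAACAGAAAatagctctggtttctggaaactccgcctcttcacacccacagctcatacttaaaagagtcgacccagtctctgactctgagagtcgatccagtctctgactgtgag
Rsad2, which encodes the antiviral enzyme viperin, had 1 match, from 120 to 111 bases before its start. Ifit1 and Ifit3, which encode RNA-binding proteins that block translation of viral RNA, had 2 matches each. Isg15, a ubiquitin-like modifier, had 3 overlapping matches between 78 and 57 bases before its start. Of 27025 genes with a listed promoter, 1079 (3.99%) held the pattern in the same window. A match is a description of the letters and was not tested as a binding site.

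Total depth was 150591289 to 169978362 UMIs per library, and 15382 to 23063 cells passed the filters. Mlkl in barcodes gated as cancer cells was at 16.7, 9.05, 13.1 and 20.8 UMIs per 1000000 (CPM), below OE-Vector 1 in OE-MLKL 1 and 2 and above it in OE-MLKL 3, where it rests on 21 UMIs in 202 cells. The kit reads the 3′ end of transcripts, and whether the construct carries that end of the gene is not given in the sources used here. The level is therefore no check of the labels. No barcode was an interferon-high neutrophil in more than 1 library, and 3 interferon-high barcodes of OE-Vector 1 and 2 of OE-MLKL 3 were also a cell barcode elsewhere.

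Interferon-high cells were most frequent in OE-Vector 1 and rarest in OE-MLKL 1 and 2. They numbered 350 of 4907 neutrophils in OE-Vector 1, a share of 7.13% (exact 95% binomial interval 6.43 to 7.89%). The share was 19 of 4802 in OE-MLKL 1, 0.396% (0.238 to 0.617%), and 23 of 7387 in OE-MLKL 2, 0.311% (0.197 to 0.467%). OE-MLKL 3 held 86 of 4139, or 2.08% (1.67 to 2.56%). OE-MLKL 3 therefore lay between OE-Vector 1 and the other OE-MLKL libraries, and its interval met none of theirs, with counting error alone in the intervals. The OE-MLKL mean was 0.928% ± 0.996 (SD, n = 3), which was 6.20 percentage points below OE-Vector 1, or 7.68 times lower. An exact two-sided permutation test gave p = 0.25, the smallest value that 1 against 3 libraries allows. The fold rests on OE-MLKL 3, and without that library it was 20.2.

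**Figure D1:**
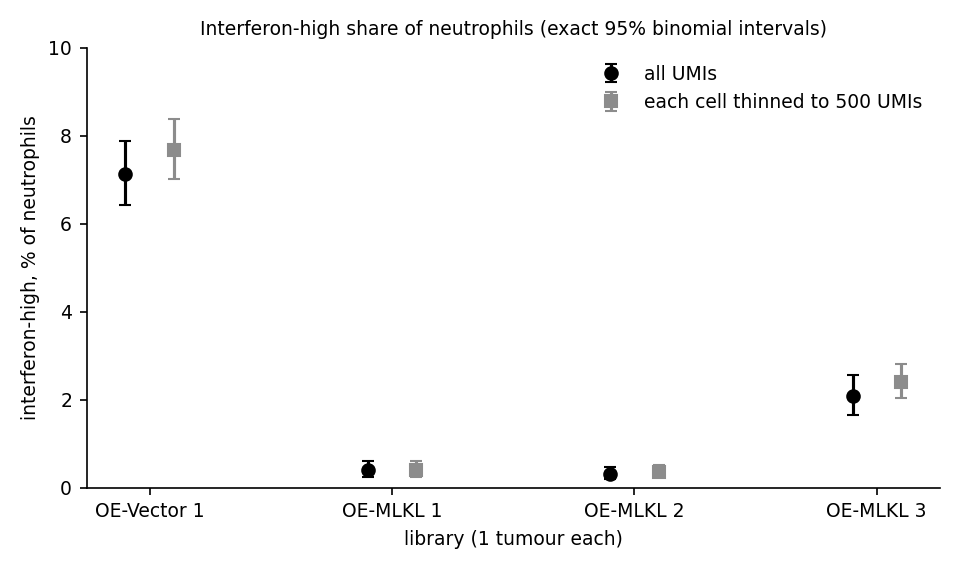
Share of neutrophils that were interferon-high (%) in each library, with all UMIs (circles) and after thinning each cell to 500 UMIs (squares). The whole rule was applied again after thinning, so the squares refer to a larger set of neutrophils. Bars are exact 95% binomial intervals. OE-Vector 1 lies at 7.13%, OE-MLKL 3 at 2.08% and the remaining libraries below 0.5%.

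Depth differed between the libraries, and the median interferon-high cell had 1197, 697, 839 and 1296 UMIs. After each cell was thinned to 500 UMIs and the whole rule applied again, the shares were 7.68%, 0.406%, 0.368% and 2.41%. They refer to 5924, 5175, 8156 and 6357 neutrophils, more than the 4907, 4802, 7387 and 4139 before thinning. The limits on C1q and keratin UMIs were also applied to the thinned counts, so the sets of cells differ. The order of OE-Vector 1, OE-MLKL 3 and the remaining libraries was as before. At a threshold of 1% of UMIs the OE-Vector share was 2.69% and the OE-MLKL mean 0.188%, and at 0.25% they were 15.8% and 2.68%. Ifit2, Cmpk2, Usp18, Oasl1 and Irf7, used in place of the rule genes at the same 0.5%, gave 0.55% and 0.0506%.

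**Figure D2:**
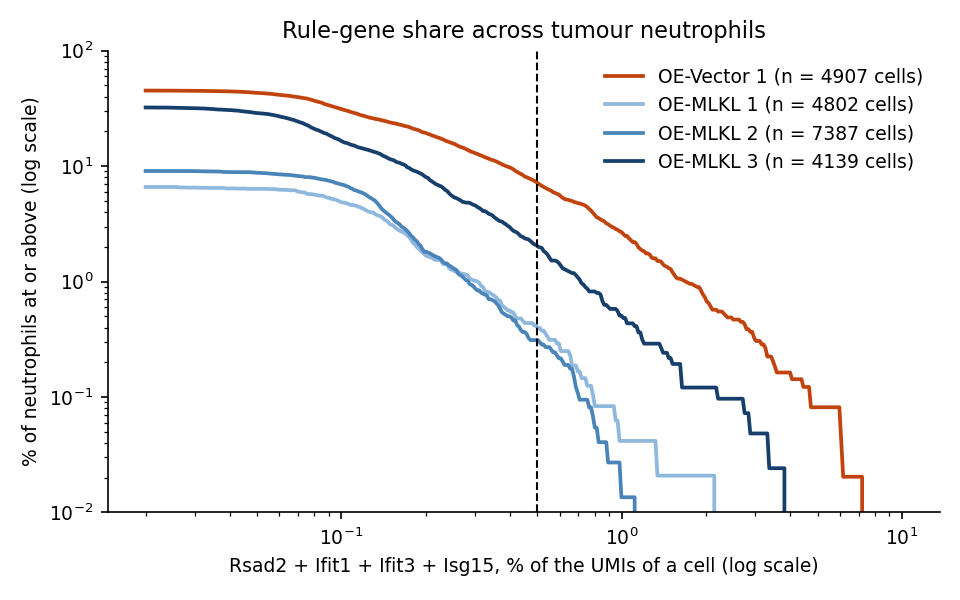
Percentage of neutrophils (y axis, log scale) whose share of UMIs in the 4 rule genes reached the value on the x axis (%, log scale), 1 line per library. The dashed line is the 0.5% threshold. The lines fall without a step at the threshold, and the highest cell had 7.23% in OE-Vector 1.

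The threshold cut a continuum, and the class is a range and not a type. Just outside it, at 0.4 to 0.5% of UMIs, lay 126, 8, 14 and 37 cells, and just inside, at 0.5 to 0.6%, lay 78, 6, 7 and 27. The median interferon-high cell had 0.824%, 0.663%, 0.672% and 0.707% of its UMIs in the rule genes. Single cells held between 3 and 93 rule-gene UMIs. All 4 rule genes were seen together in 89 of 350 cells of OE-Vector 1, 2 of 19 of OE-MLKL 1, 1 of 23 of OE-MLKL 2 and 22 of 86 of OE-MLKL 3. To see how far the choice followed single UMIs, the UMIs of each cell were split at random into 2 parts, and cells chosen in 1 part were read in the other. Of the chosen cells, 62.9%, 40.9%, 24.2% and 53.4% also reached the threshold in the part not used, against 3.16%, 0.297%, 0.437% and 1.03% of the cells not chosen. The chosen cells of OE-MLKL 2 met the threshold again least often.

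Across all neutrophils the rule genes took 0.147% of UMIs in OE-Vector 1 and a mean of 0.0298% ± 0.0263 (SD, n = 3) in the OE-MLKL libraries, 4.94 times less. The single values were 1472, 133, 161 and 601 CPM. These values are a description, since the rule used the same genes, and the fold was 10.0 without OE-MLKL 3. The other neutrophils alone were at 732, 105, 141 and 429 CPM, while the free RNA of barcodes with at most 100 UMIs was at 300.5, 79.8, 92.5 and 177 CPM. In OE-MLKL 1 and 2 the other neutrophils thus lay less than 2-fold above free RNA, and in OE-Vector 1 and OE-MLKL 3 more than 2-fold above it.

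Each rule gene was far higher in interferon-high than in other neutrophils of its own library, as the rule requires. Rsad2 was at 3373, 2669, 2565 and 4090 CPM in interferon-high cells and at 152, 30.7, 37.5 and 115 CPM in the others. Isg15 was at 5703, 3216, 3313 and 3165 CPM against 515, 54.5, 86.3 and 270 CPM. Isg15 stood out in OE-Vector 1, also among the other neutrophils. Ifit1 was at 1417, 1505, 695 and 910 CPM against 41.6, 15.1, 11.1 and 26.3 CPM. Ifit3 was at 673, 411, 374 and 941 CPM against 23.3, 4.71, 5.93 and 17.9 CPM, and reads of its near-identical neighbour Ifit3b cannot be told apart with certainty. One UMI was worth 2.12, 68.4, 53.4 and 7.91 CPM in the interferon-high cells, so the values of OE-MLKL 1 and 2 rest on few UMIs, 39 and 48 for Rsad2.

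Of 16 neutrophil markers, the 6 that chose the cells had a joint floor of 1% of UMIs by the rule. Their median share was 4.51, 4.99, 3.48 and 3.56% in interferon-high cells. In other neutrophils it was 5.20, 5.43, 6.58 and 5.22%, above the interferon-high cells in every library. S100a8 was at 21167, 24771, 19290 and 13639 CPM against 26030, 30737, 30710 and 23224 CPM. S100a9 was at 35958, 27234, 34733 and 21582 CPM against 40049, 34934, 44172 and 39641 CPM. Csf3r, Cxcr2, Hdc and Il1r2 did not share 1 direction. The 10 remaining markers summed to 12068, 11359, 12344 and 7555 CPM in interferon-high cells and to 10670, 17289, 11301 and 13436 CPM in other neutrophils, against 1388, 1047, 1046 and 1750 CPM in free RNA. They stood several-fold above free RNA in every library, and they were lower than in other neutrophils in OE-MLKL 1 and 3. Ly6g, a classical mouse neutrophil marker, was scarce, with 11, 0, 0 and 6 UMIs. Macrophage markers, 9 genes in all, summed to 1175, 1642, 1389 and 2128 CPM in interferon-high cells and to 1328, 2201, 1959 and 2288 CPM in other neutrophils, lower in the interferon-high cells in every library. C1qa, C1qb and C1qc among them were limited by the rule. The sum of the monocyte markers, 7 genes, was higher in every library, at 595, 821, 1122 and 902 CPM against 470, 465, 503 and 728 CPM. Ly6c2, itself raised by interferon in many cells, was at 253 against 98.2 CPM in OE-Vector 1 and at 547 against 157 CPM in OE-MLKL 1. The higher sum rested on Ly6c2 in these libraries. In OE-Vector 1, Fn1 was at 202 against 199 CPM. F13a1 (6.37 against 13.4 CPM), Ms4a6c (8.50 against 17.0 CPM), Ms4a4c (2.12 against 2.92 CPM) and Csf1r (115 against 129 CPM) were lower there. Ccr2, which guides monocytes, had 4, 0, 0 and 2 UMIs, too few for a comparison. It was at 8.50 against 9.23 CPM in OE-Vector 1 and 15.8 against 8.33 CPM in OE-MLKL 3. The part of monocyte transcripts in the values below was not tested beyond leaving out barcodes with at least 2 UMIs of 55 markers of other cell types. This kept 1560, 2439, 3842 and 352 neutrophils. The interferon-high share was then 7.31% in OE-Vector 1 and a mean of 1.52% in the OE-MLKL libraries, a fold of 4.80. In OE-MLKL 3 it was 3.69%, on 13 cells. T and NK cell markers summed to 48.9, 137, 0 and 39.6 CPM against 145, 60.5, 78.2 and 83.4 CPM, with 2 UMIs behind the value of OE-MLKL 1. Cd3e had 0, 0, 0 and 1 UMIs. Dendritic cell markers summed to 484, 205, 214 and 1131 CPM against 615, 206, 305 and 1070 CPM. The remaining 6 marker lists reached at most 170 CPM in interferon-high cells of any library.

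Antiviral genes that the rule did not use were higher, step by step, in cells with more rule-gene UMIs. The 54 measured antiviral genes beside the rule genes summed to 29905, 20391, 20519 and 26590 CPM in interferon-high cells and to 11917, 6660, 6727 and 11131 CPM in other neutrophils. In OE-Vector 1 the sum was 9225 CPM in cells with 0 rule-gene UMIs, 13781 CPM up to 0.25%, 20479 CPM from 0.25 to 0.5%, 25182 CPM from 0.5 to 1%, 33028 CPM from 1 to 2% and 52296 CPM above. OE-MLKL 3 passed through nearly the same levels, from 9406 CPM to 54474 CPM in the highest bin, which held 5 cells. OE-MLKL 1 began lower, at 6390 CPM, and reached 20051 CPM from 0.5 to 1% in 17 cells. OE-MLKL 2 went from 6297 to 18888 CPM over the same bins. Cells just outside and just inside the threshold had 21403 and 20831 CPM in OE-Vector 1 and 21377 and 22440 CPM in OE-MLKL 3. With 6 to 14 cells on a side, they had 16639 and 12990 CPM in OE-MLKL 1 and 14124 and 18182 CPM in OE-MLKL 2, which differ in opposite directions.

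**Figure D3:**
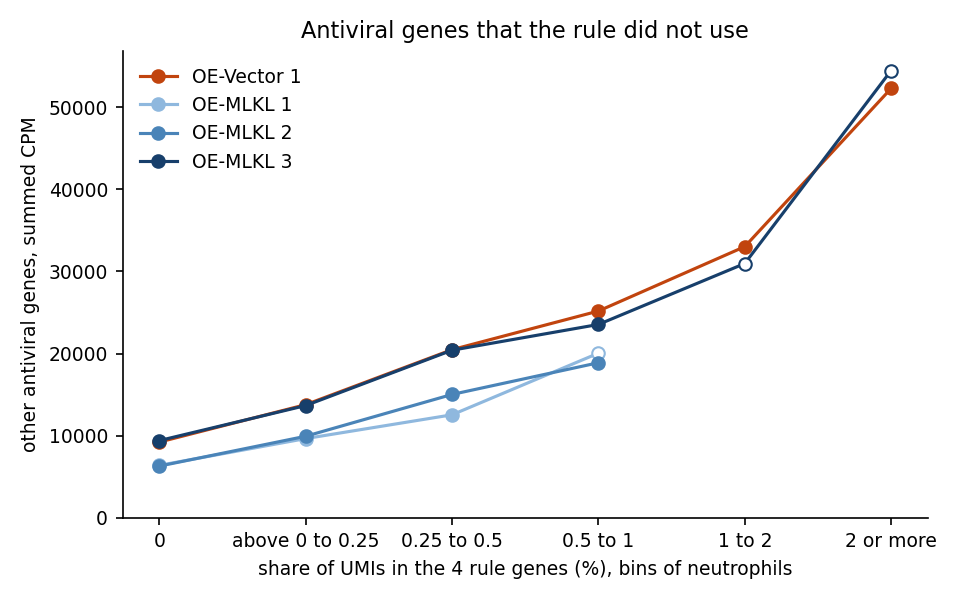
Summed level (CPM, y axis from 0) of the 54 antiviral genes outside the rule, in neutrophils binned by the share of UMIs in the rule genes (x axis, %), 1 line per library. Open circles are bins of fewer than 20 cells, and bins of fewer than 5 cells are left out. In every library the sum increases from bin to bin, in OE-Vector 1 from 9225 to 52296 CPM.

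Across all genes, 57 of 5330 (1.07%) were at least 2-fold higher in interferon-high than in other neutrophils in each of the 4 libraries, on the scale of CPM + 5, and 2 (0.0375%) were at least 2-fold lower. Genes entered with a mean of at least 20 CPM over both cell sets. A gene could therefore enter through the interferon-high cells alone, as Ifit2 did with 2.97 to 11.2 CPM in other neutrophils. This filter favours higher over lower genes in these counts and in those of the lists below. In OE-Vector 1 and OE-MLKL 3 alone, the libraries with over 100000 UMIs in interferon-high cells, 105 of 5168 (2.03%) were higher and 30 (0.58%) lower. The 2 genes lower in all libraries, Clcn3 and Ralgapa1, had 0 UMIs in the interferon-high cells of OE-MLKL 1 and 2, where 1 UMI was worth over 50 CPM, so their ratios there follow the pseudocount. Of the 57, 40 belonged to the gene lists below. These are descriptions, since the contrast is the one the rule used.

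Antiviral effectors formed the largest group. Of 58 measured, 46 passed the filter and 26 were higher in all libraries, or 22 of 42 beside the rule genes, with a median log2 ratio of 2.06 over the 46 against -0.18 over all genes. In the better covered pair of libraries 38 of 49 were higher, or 34 of 45 beside the rule genes, against 105 of 5168 (2.03%) of all genes. Ifit2, a paralog of Ifit1, was at 234, 205, 160 and 269 CPM in interferon-high cells and 7.29, 2.97, 9.37 and 11.2 CPM in the others, the highest median ratio outside the rule (log2 4.18). Cmpk2, a mitochondrial nucleotide kinase beside Rsad2 on chromosome 12, was at 423, 274, 374 and 340 CPM against 25.4, 9.17, 15.9 and 29.3 CPM. In both genes the interferon-high values of the 4 libraries lay above every value of the other neutrophils.

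Negative regulators were among them. Usp18 removes Isg15 from proteins and blocks the type I receptor, and it was at 217, 274, 160 and 229 CPM against 19.1, 4.21, 6.4 and 12.3 CPM. Oasl1, which restrains translation of Irf7, was at 333, 137, 214 and 301 CPM against 36.3, 5.70, 5.78 and 19.1 CPM. Gm13822 lies on the opposite strand and overlaps Oasl1, and without a stated strand setting its reads cannot be told apart from those of Oasl1. It was at 336, 342, 321 and 94.9 CPM against 55.2, 8.92, 7.81 and 19.9 CPM. Herc6, the mouse ligase that attaches Isg15, was at 308, 342, 214 and 467 CPM against 39.7, 11.2, 13.6 and 48.5 CPM.

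The remaining leading effectors were Slfn5, Slfn4, Ifi204, Isg20, Ddx60 and Oas3, with median log2 ratios of 3.52, 2.54, 2.95, 2.91, 2.87 and 2.48. Isg20, an RNA exonuclease, was at 1032, 684, 534 and 799 CPM against 185, 42.1, 52.9 and 128 CPM. Oas3, which makes the second messenger that activates RNase L, was at 399, 205, 481 and 364 CPM against 91.2, 27.3, 32.3 and 72.4 CPM. Ifitm3, which hinders virus entry, was at 3893, 4311, 2992 and 2975 CPM against 1126, 695, 746 and 1021 CPM, but free RNA held 1281 to 1881 CPM of it, above the other neutrophils. Slfn, Oas, Ifi200 and Gbp genes are families with similar copies, and reads may be split between them.

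**Figure D4:**
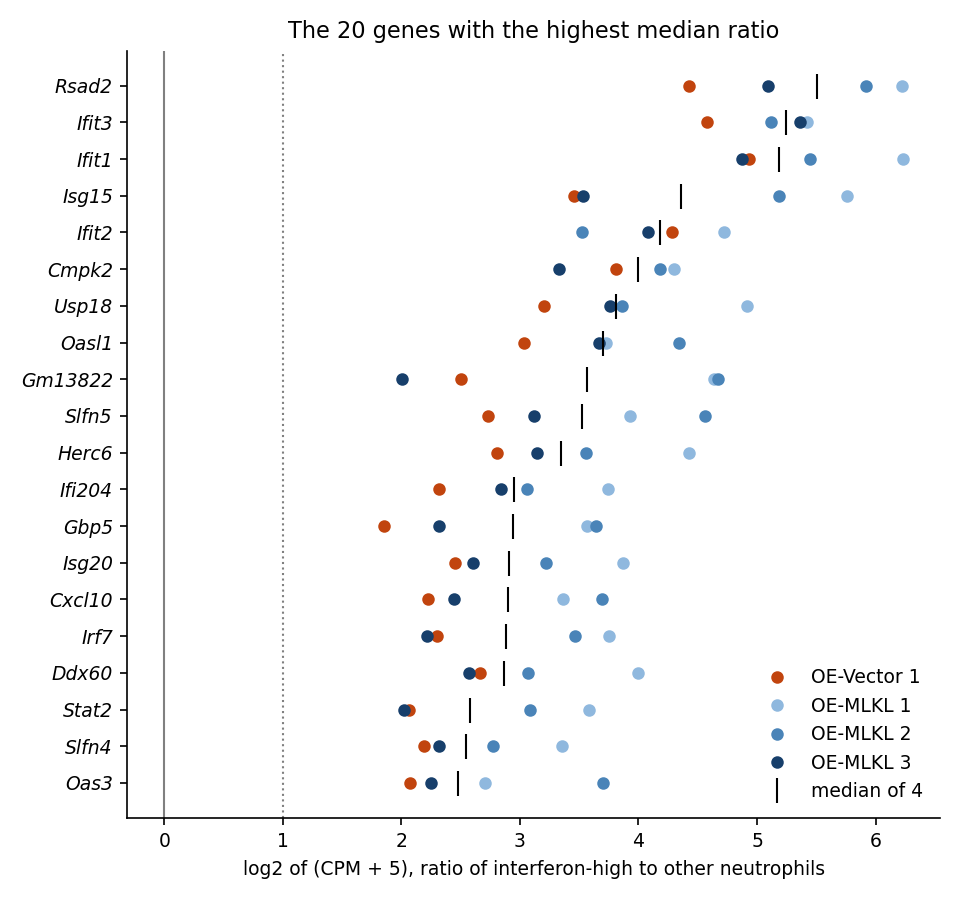
log2 ratio of CPM + 5 in interferon-high over other neutrophils (x axis) for the 20 genes with the highest median ratio, 1 coloured point per library and a black bar for the median. The dotted line marks 2-fold. Points of OE-MLKL 1 and 2 mostly lie to the right, and all points lie beyond 2-fold because that chose the genes.

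The pattern outlined for the rule promoters recurred. Of the 57 genes, 49 had a listed promoter, and 24 of these (49.0%) held GAAANNGAAA, among them Gbp2, Gbp5, Cxcl10, Oas3, Stat2, Socs1, Ddx58, Ifih1 and Slfn5. Without the rule genes it was 20 of 45 (44.4%), against 186 of 4244 (4.38%) of the other genes in the comparison. Ifit2, Cmpk2, Oasl1, Irf7, Isg20 and Cd274 had no match in this window, which says only that these letters are not there.

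Some genes of the receptors and JAK-STAT list were at least 2-fold higher in every library. Of 22 measured genes of receptors and JAK-STAT, 20 passed the filter and 3 (Irf7, Stat2 and Socs1) were higher in all libraries. Over all genes it was 57 of 5330 (1.07%). The list median was log2 0.19, against -0.18 over all genes. Ifnar1 was at 97.7 CPM (46 UMIs) in interferon-high cells of OE-Vector 1 against 87.2 CPM, and at 79.1 against 77.0 CPM in OE-MLKL 3. Ifnar2 was at 147 against 154 CPM and at 206 against 125 CPM in the same libraries. Jak1 was at 384 against 369 CPM and at 475 against 415 CPM. None of the 3 reached 2-fold in these libraries.

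Irf7, the factor that amplifies type I interferon production, was at 493, 342, 481 and 285 CPM against 95.9, 20.8, 39.0 and 57.5 CPM. Stat2 was at 151, 547, 374 and 222 CPM against 32.2, 41.1, 39.7 and 50.8 CPM. Both were separated from the other neutrophils in each library. Irf9 was at 208, 137, 107 and 206 CPM against 92.7, 51.8, 56.4 and 95.4 CPM. Socs1, the feedback inhibitor of JAK kinases, was at 316, 479, 427 and 388 CPM against 110, 75.1, 90.7 and 100 CPM, whereas Socs3 was at 450, 205, 214 and 324 CPM against 374, 596, 276 and 322 CPM. Irf1 was at 656, 684, 855 and 1780 CPM against 418, 232, 333 and 624 CPM, short of 2-fold in OE-Vector 1.

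Transcripts of the ligands were close to absent from the interferon-high cells. The 20 ligand genes together had 1 UMI in them, of Ifng in OE-Vector 1, and none passed the filter. Over all cells Ifnb1 had 5, 8, 0 and 1 UMIs, of which 4 lay in the monocyte gate of OE-Vector 1 and 6 in macrophages of OE-MLKL 1. The remaining type I and type III ligands had 9, 5, 5 and 6 UMIs in all cells. Ifng, the type II ligand, had 1895, 429, 519 and 1468 UMIs in all cells, with 597, 223, 177 and 190 of them in T cells. The monocyte gate held 204, 10, 9 and 51 of them. That gate was set on Ly6c2 and Ccr2 without excluding T or NK cell genes, so it may hold such cells. Ifng UMIs were thus most numerous in OE-Vector 1 and OE-MLKL 3, which also held most interferon-high cells, and the part of ligand levels in that order was not tested.

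Sensors of nucleic acid were higher in part. Of 19 measured, 11 passed the filter and Zbp1, Ifih1 and Ddx58 were higher in all libraries, against 1.07% of all genes. Zbp1, a sensor of Z-form nucleic acid that can engage Ripk3 and through it Mlkl, was at 582, 1026, 641 and 546 CPM against 130, 75.1, 93.4 and 141 CPM. Ddx58, which encodes the RNA sensor RIG-I, was at 291, 68.4, 267 and 301 CPM against 75.2, 20.3, 29.2 and 71.1 CPM, with 1 UMI in OE-MLKL 1. Ifih1, which encodes MDA5, was at 151, 68.4, 107 and 261 CPM against 33.7, 22.8, 23.4 and 44.4 CPM. Tlr13, a sensor of bacterial RNA, was at 227 against 222 CPM in OE-Vector 1 and 245 against 248 CPM in OE-MLKL 3, so the sensors did not move as 1 group. At a threshold of 1% of UMIs the log2 ratio of Ddx58 was 2.06 in OE-Vector 1 and 2.57 in OE-MLKL 3, and OE-MLKL 1 and 2 had 0 UMIs of it in 2 cells and 1 cell.

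Some interferon-inducible GTPases, most of them guanylate-binding proteins, and 1 chemokine were higher in every library. Of 23 measured genes of the list, 15 passed the filter and Gbp2, Gbp3, Gbp5, Gbp7, Igtp and Cxcl10 were higher in all libraries, with a list median of log2 1.46. Over all genes, 1.07% were higher in all libraries. In OE-Vector 1 and OE-MLKL 3 alone, 12 of 15 genes of the list were higher, against 2.03% of all genes. Gbp2 was at 2547, 1779, 2031 and 3117 CPM against 771, 203, 400 and 819 CPM. Gbp5, which helps to assemble the NLRP3 inflammasome, was at 342, 547, 962 and 1044 CPM against 91.2, 41.6, 72.6 and 206 CPM. Its level in interferon-high cells was lowest in OE-Vector 1. Cxcl10, a ligand of Cxcr3 on T cells, was at 1209, 1163, 2939 and 1464 CPM against 254, 109, 223 and 266 CPM. Cxcl9, another ligand of Cxcr3, was at 136, 0, 0 and 103 CPM against 65.0, 6.94, 34.3 and 72.1 CPM. Ccl5, a chemokine for T cells, was at 42.5, 0, 0 and 71.2 CPM against 249, 29.0, 83.0 and 99.0 CPM.

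Genes of MHC class I presentation had smaller ratios. All 18 passed the filter, and the list median was log2 0.72, against -0.18 over all genes. In all libraries 0 were 2-fold higher, near the share of all genes (1.07%). B2m, the light chain of MHC class I, was at 4199, 2737, 2351 and 3244 CPM against 2650, 1209, 1467 and 2071 CPM. Psmb9, an immunoproteasome subunit, was at 459, 274, 321 and 483 CPM against 235, 110, 133 and 191 CPM, and Tap1, the peptide transporter that overlaps it on the opposite strand, at 333, 274, 374 and 301 CPM against 156, 104, 123 and 156 CPM. H2-K1, a heavy chain, was at 1555, 1642, 908 and 1875 CPM against 1351, 1397, 1141 and 1630 CPM, near the other neutrophils.

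Among 22 cell death genes, 18 passed the filter and Zbp1 alone was higher in all libraries, against 1.07% of all genes. Mlkl itself had 1 UMI in the interferon-high cells, in OE-Vector 1, and Ripk3, the kinase that activates it, also had 1. Mcl1, a survival factor of neutrophils, was at 3572, 2669, 1924 and 2658 CPM against 2794, 2521, 1867 and 2425 CPM. Casp8 was at 117, 0, 53.4 and 111 CPM against 46.8, 30.0, 24.8 and 46.0 CPM, higher by 2-fold in OE-Vector 1 and OE-MLKL 3.

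Of 13 checkpoint ligands, 10 passed the filter and Cd274 alone was higher in all libraries, against 1.07% of all genes. Cd274, which encodes PD-L1, was at 767, 684, 427 and 981 CPM against 259, 56.0, 72.1 and 223 CPM. The value of OE-MLKL 2 rests on 8 UMIs and that of OE-MLKL 1 on 10. At a threshold of 1% of UMIs, which left 2 and 1 cells with 0 Cd274 UMIs in OE-MLKL 1 and 2, the log2 ratio was 1.52 in OE-Vector 1 and 1.32 in OE-MLKL 3. Cd47, the don't-eat-me signal, was at 344, 821, 588 and 419 CPM against 311, 862, 643 and 360 CPM, and its receptor Sirpa was at 174, 0, 267 and 134 CPM against 258, 171, 201 and 195 CPM. Neither gene differed by 2-fold in 1 direction across libraries.

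Granule genes did not follow the antiviral genes. Of 19 measured, 12 passed the filter, and the median was log2 -0.44, against -0.18 over all genes. In all libraries 0 were 2-fold higher or lower, near the shares of all genes (1.07% higher and 0.0375% lower). Retnlg, a resistin-like protein of young neutrophils, was at 1461, 3900, 3206 and 1970 CPM against 1634, 9419, 4871 and 6315 CPM, lower in each library but by least in OE-Vector 1. Mmp8, the neutrophil collagenase, was at 149, 205, 107 and 253 CPM against 181, 983, 775 and 524 CPM. Other neutrophils of OE-Vector 1 thus had less Retnlg and Mmp8 than those of any OE-MLKL library.

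Inflammatory genes were high in both cell sets. All 21 passed the filter and Acod1 alone was 2-fold higher in all libraries, against 1.07% of all genes. Acod1, the enzyme that makes itaconate, was at 1480, 547, 802 and 1740 CPM against 615, 120, 138 and 791 CPM. Cxcl2, a neutrophil attractant, was at 17499, 9990, 9458 and 10435 CPM against 10960, 7913, 4566 and 8981 CPM. Il1b was at 12678, 6569, 10420 and 12452 CPM against 11338, 8094, 7319 and 11467 CPM. Neither Cxcl2 nor Il1b set the interferon-high cells apart by 2-fold in every library. None of 16 hypoxia and late tumour neutrophil genes and none of 19 migration and adhesion genes was 2-fold higher in all libraries. These counts are near the share of all genes (1.07%). The medians were log2 0.38 and 0.01, against -0.18 over all genes. Cxcr2, the receptor for Cxcl2, was at 1368, 1095, 1015 and 1258 CPM against 1161, 1224, 769 and 1264 CPM, and it was part of the neutrophil rule.

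Rule genes in the other cells of the same tumours were mostly at or below their level in free RNA. In macrophages (C1q-positive) they summed to 212, 68.9, 50.9 and 94.4 CPM, in cancer cells to 247, 78.4, 95.8 and 148 CPM and in monocytes to 313, 15.6, 50.5 and 128 CPM. The monocyte gate did not exclude T or NK cell genes, so monocytes here means the cells of that gate. T cells held 98.4, 18.8, 26.5 and 42.5 CPM. In each of these gates OE-Vector 1 was highest, OE-MLKL 3 was second and OE-MLKL 1 and 2 followed. Free RNA had the same order, at 300.5, 79.8, 92.5 and 177 CPM, and its part in the order of the other gates was not tested. Macrophages and T cells lay below free RNA in every library and cancer cells in 3 of 4. The part of free RNA in the UMIs of a cell was not estimated. These sums alone therefore do not show whether those cells expressed the rule genes. Cells at the 0.5% threshold were 8 of 1331 macrophages of OE-Vector 1, 0.601% (0.260 to 1.18%), at a median depth of 7218 UMIs, and 6 of 244 monocytes, 2.46% (0.908 to 5.28%), at 3618 UMIs. Neutrophils were shallower, with a median of 1187 UMIs in that library, and their share of 7.13% lay above both intervals, which hold counting error alone. A deeper cell needs more rule-gene UMIs to reach 0.5%, and the rule was set for neutrophils. The shares here and below are therefore a description and no test between cell types. Macrophages at the threshold were 4 of 2073 in OE-MLKL 1, 0.193% (0.0526 to 0.493%), an interval that holds the neutrophil share of 0.396%. They were 0 of 1791 in OE-MLKL 2, which allows up to 0.206%, a limit that lies within the neutrophil interval of 0.197 to 0.467%. In OE-MLKL 3 they were 4 of 2454, 0.163% (0.0444 to 0.417%), below the neutrophil interval of 1.67 to 2.56%. In OE-MLKL 1 and 2 no monocyte reached the threshold, of 46 and 112, which allows up to 7.71% and 3.24%, and in OE-MLKL 3 it was 1 of 129, 0.775% (0.0196 to 4.24%). The neutrophil shares of these 3 libraries lay within those limits of the monocyte gate. Whether neutrophils and monocytes differ was not tested.

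**Figure D5:**
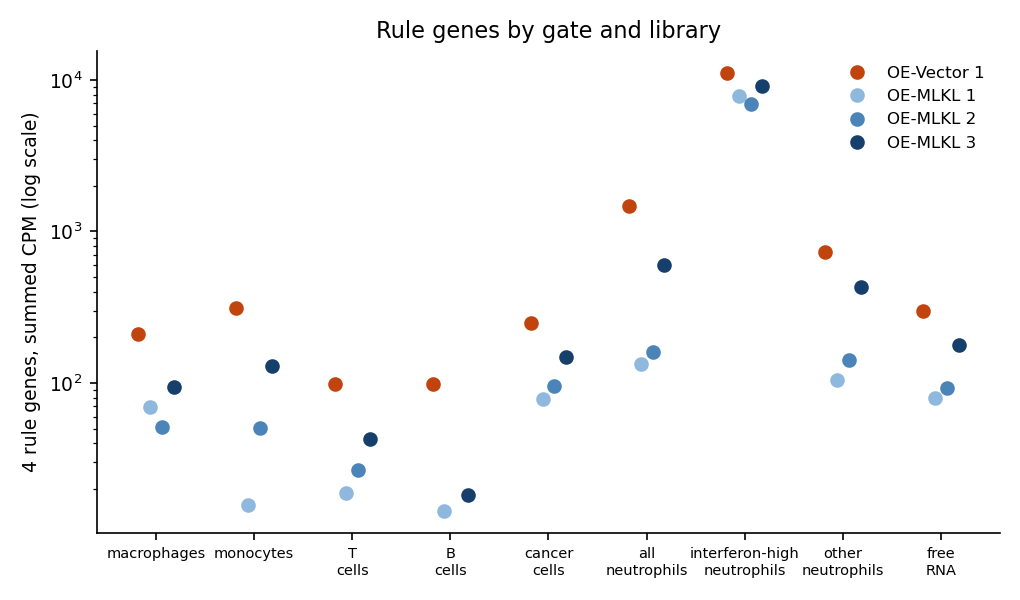
Summed level of the 4 rule genes (CPM, log scale) in each gate and in free RNA (barcodes with at most 100 UMIs), 1 point per library. B cells of OE-MLKL 2 had 0 UMIs and are not drawn. The interferon-high neutrophils lie at 6947 to 11166 CPM by the rule, and OE-Vector 1 is the highest library in every gate.

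Within the interferon-high cells, 5 of 1994 genes (0.251%) differed between the groups in the quasi-likelihood test of edgeR on UMIs summed per library, 2 higher and 3 lower in OE-MLKL. Chil3, a chitinase-like protein also called Ym1, was at 38.2, 4379, 8122 and 1922 CPM, higher in OE-MLKL by log2 6.57 ± 0.86 (SE, edgeR adjusted p = 5.3e-11). Klhl6, a BTB-Kelch protein, was at 27.6, 958, 802 and 142 CPM (log2 3.92 ± 0.89, edgeR adjusted p = 0.0050). All OE-MLKL libraries lay above OE-Vector 1 for both. Cxcl3, a neutrophil attractant, was at 692, 0, 0 and 71.2 CPM (log2 -4.03 ± 0.76, edgeR adjusted p = 0.00012). G0s2, an inhibitor of the lipase Atgl, was at 3668, 342, 0 and 1234 CPM (log2 -2.79 ± 0.55, edgeR adjusted p = 0.00033). Ifi27l2a, an interferon-stimulated gene, was at 2139, 616, 53.4 and 554 CPM (log2 -2.59 ± 0.59, edgeR adjusted p = 0.0053). For these 3 genes OE-Vector 1 lay above every OE-MLKL library.

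Other neutrophils showed differences in the same direction for these genes. Chil3 was at 56.5, 7356, 8639 and 2620 CPM in them, Klhl6 at 53.1, 663, 714 and 225 CPM, and G0s2 at 3330, 381, 386 and 1540 CPM. Cxcl3 was at 337, 82.3, 24.0 and 74.9 CPM and Ifi27l2a at 664, 26.5, 33.7 and 103 CPM. Over all neutrophils, edgeR called 0 of 12693 genes (0%), with 1032 at an unadjusted p under 0.05, while DESeq2 called 70. This count depends on the libraries, since edgeR called 1121 of 12350 genes when OE-MLKL 3 was left out, 61 when OE-MLKL 1 was and 1 when OE-MLKL 2 was. The fit on interferon-high cells gave all genes 1 common spread beyond their mean trend, the spread of the OE-MLKL libraries was assumed for the lone OE-Vector library, and OE-MLKL 1 and 2 gave 19 and 23 cells. Cxcl3 had 0 UMIs in both of these libraries and G0s2 in OE-MLKL 2, so that their fitted folds depend on the prior count. Without OE-MLKL 3 there were 59 calls among 434 genes, without OE-MLKL 1 there were 2 and without OE-MLKL 2 there was 1, and DESeq2 called Chil3 alone.

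Lists of genes were described by their medians, relative to the median over all genes of the fit (log2 0.02 with TMM scaling, 0.35 with library size alone). In interferon-high cells the 40 antiviral effectors in the fit beside the rule genes were at log2 -0.46 in OE-MLKL relative to that median, with 5 of 40 above 0, and 1 of them (Ifi27l2a) passed the test. The rule fixes a minimum of the rule genes in every one of these cells. In the interferon-high cells, inflammatory genes were at -0.93 with 0 of 20 above 0 and Cxcl3 called, and hypoxia and late tumour neutrophil genes were at -1.06, with 1 of 13 above 0 and 0 called. Granule genes of these cells were at 0.07, with Chil3 called among 11, and MHC class I genes at -0.38, with 0 of 16 called. In all neutrophils the median of the 53 antiviral effectors beside the rule genes was log2 -1.25 relative to all genes, with 1 of 53 above 0. There the inflammatory genes were at -0.93 with 1 of 21 above 0, and the hypoxia and late tumour neutrophil genes at -1.37 with 1 of 18 above 0, so that neither shift was limited to the interferon-high cells. Granule genes were at 1.09 in all neutrophils, with 11 of 16 above 0, and MHC class I genes at -0.66, with 3 of 18 above 0. Whether the list medians differ between the cell sets was not tested.

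No gene was called in the test of whether the difference between groups was unlike in interferon-high and other neutrophils, with 0 of 11193 (0%) in edgeR, 315 at an unadjusted p under 0.05 and 0 in DESeq2. Genes with the smallest p were not called, and most rest on a few UMIs. Lcn2, a granule protein that binds siderophores, was at 1531, 2532, 3313 and 649 CPM in interferon-high cells against 715, 3147, 2329 and 1081 CPM in other neutrophils (log2 -2.01 ± 0.68, edgeR adjusted p = 1), and Ifitm6 at 193, 479, 267 and 127 CPM against 56.0, 365, 192 and 151 CPM (log2 -2.32 ± 0.78, edgeR adjusted p = 1). Both passed the test under some alternatives, Lcn2 in 4 and Ifitm6 in 3 of them. In OE-Vector 1 both were higher in the interferon-high cells by at least 2-fold, and in OE-MLKL 3 both were lower. Tlk1, Snai1 and LTO1 on the same side, and Chchd4, Depdc1a, Zbtb48 and Ifi211 on the other, had at most 19 UMIs in the interferon-high cells of any library. With this design, simulated 4-fold differences of this kind were recovered in 1.82% of cases and 16-fold ones in 44.4%, so that most 4-fold differences were not detectable at this depth.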

How the data were processed

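Droplet-based 3′ single-cell RNA sequencing was made from orthotopic tumours. The deposited matrices hold whole-number UMI counts for every barcode, and the authors neither filtered nor scaled them. The labels name Cell Ranger 2.1.1 and mm10 while the file headers name Cell Ranger 7.1.0, and whether intronic reads or the strand entered the counts is not given in the sources used here. Of 32285 gene identifiers, 32158 were found in GENCODE vM21, and promoters and their sequences are from RefSeq on GRCm38.p6.

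Cells were chosen by the stated rule. No doublet caller was run. The rule and an alternative without barcodes with at least 2 UMIs of markers of other cell types were used in its place. The alternative left out most neutrophils of OE-Vector 1 and OE-MLKL 3. CPM are counts per 1000000 summed UMIs of a cell set. Sums per library were tested with edgeR 4.0.16 (quasi-likelihood, TMM, filterByExpr, Benjamini-Hochberg at 0.05) in R 4.3.3, with limma 3.58.1 and DESeq2 1.42.0, for 1 OE-Vector against 3 OE-MLKL libraries, with 2 residual degrees of freedom. The difference in the interferon-high share was put to a two-sided exact permutation test over the libraries, and the exact binomial intervals are from scipy 1.17.1. The same test, planned for the summed rule genes, is not reported because the rule used them, and the rule genes stayed among the genes over which edgeR adjusted p. The SE given with an edgeR log2 fold was derived as its absolute value divided by the square root of the F statistic, since edgeR reports none. It is approximate, above all for genes with 0 UMIs in a library. Nothing in the labels beyond the tumour separates replicates. With 1 OE-Vector library, the spread in the edgeR tests between groups is that between OE-MLKL tumours and their handling. In the test of unlike differences it is the spread of differences between cell sets within libraries. The fits with interferon-high cells gave all genes 1 common spread beyond their mean trend. Intervals cover counting error only.

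Members and gene lists were chosen with earlier results of these data known. Named genes were the rule genes, the 20 highest and 10 lowest median ratios among genes called in all libraries, at most 10 called genes per direction between groups (or the 5 with the smallest p), and 2 to 6 genes per list by level or ratio. Further list members are named for their role. Some items these rules name are not reported here. On simulated data, 27.6% of 4-fold and 65.3% of 16-fold differences in interferon-high cells (1574 genes) were recovered, with 0 of the wrong sign, and for all neutrophils (12360 genes) 45.0% and 92.1%. Unchanged genes made up 2 of 93 calls in interferon-high cells and 21 of 153 in all neutrophils, the latter a larger share than the threshold of 0.05. Alternatives varied the scaling, filter, tool, thresholds, depth, marker barcodes, rule genes, pseudocount and libraries.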

Additional observations from a re-analysis of the deposited data

How the results depend on the processing

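No paired analysis was possible because the labels give both groups replicate numbers 1 to 3 but only number 1 was analysed here in both. The interferon-high share and the rule-gene level kept their direction, and no alternative could bring the exact p of the share below 0.25. Leaving out 1 OE-MLKL library moved the share difference between -6.78 and -5.90 percentage points and the level difference between -0.132 and -0.109 points.

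The 5 genes called between groups became 8 with library size alone, 1 with DESeq2, 1 at 1% of UMIs, 33 at 0.25%, 0 from 1000 UMIs, 8 after thinning, 0 with the other rule genes, 1 with separate UMIs and 0 in all neutrophils, an alternative added after the data were seen. Leaving out 1 library gave 1 to 59 calls. Of the 5, Chil3 stayed called in 12 of 14 alternatives, Cxcl3 in 7 of 12, G0s2 in 8 of 15, Klhl6 in 6 of 13 and Ifi27l2a in 8 of 15, all in the same direction. The 0 calls for unlike differences became 2 with library size alone, 2 at 0.25%, 15 without barcodes with foreign markers and 1 with separate UMIs, and 0 to 4 without 1 library. The cause was not tested.

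The 57 genes higher in all libraries became 19 at 1% of UMIs, 28 from 1000 UMIs, 21 with the other rule genes and 105 in the better covered pair of libraries, and 64 to 75 without 1 library. Of the 28, 25 were among the 57, and of the 21, 18. The 2 lower genes became 113 at 1%, 0 at 0.25%, 14 with neutrophil genes at 3%, 67 without foreign markers, 13 from 1000 UMIs, 6 after thinning, 568 with the other rule genes, 13 with separate UMIs, 7 with a pseudocount of 1 CPM, 74 with no minimum level and 30 in the better covered pair, and 11 to 51 without 1 library. In OE-MLKL 1 and 2, 1 UMI is worth over 50 CPM, which limits any count of lower genes.

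Median log2 ratios fell below 0 for Ddx58 (-0.15 at 1% and -0.12 with the other rule genes), Cd274 (-1.17 and -1.18) and Ifih1 (-0.24 from 1000 UMIs), where OE-MLKL 1 and 2 kept 1 to 5 cells with 0 UMIs of the gene and the pseudocount sets the sign. In OE-Vector 1 and OE-MLKL 3 the ratios of these genes were at least 1.30 in these alternatives. Among the uncalled unlike differences, Zbtb48 lay between -0.24 and 9.37 without 1 library (-0.24 without OE-MLKL 3), at -0.082 at 1% and -0.12 with the other rule genes, and Lcn2 turned to 3.21 with the other rule genes. In edgeR, Lcn2 was called without OE-MLKL 3 (adjusted p = 0.0057), at 0.25% (6.0e-08), without barcodes with foreign markers (0.00043) and with library size alone (0.0499), and Ifitm6 in the first 3 of these (0.0057, 0.00052 and 0.048).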

Other observations

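Of the 57 genes higher in interferon-high neutrophils of all 4 libraries, 17 stood in none of the gene lists, and those named here were chosen after their values were seen. Plac8, a small cysteine-rich protein of myeloid cells, was at 964, 1300, 1069 and 973 CPM in interferon-high cells of OE-Vector 1, OE-MLKL 1, OE-MLKL 2 and OE-MLKL 3 and at 277, 184, 197 and 229 CPM in other neutrophils. The interferon-high levels of Plac8 were close to each other, with 19 and 20 UMIs behind those of OE-MLKL 1 and 2. All these cells had passed the same rule-gene threshold. Nampt, the enzyme of NAD salvage, was at 573, 274, 214 and 403 CPM against 199, 40.1, 61.2 and 149 CPM. Ifi47, an interferon-inducible GTPase, was at 843, 753, 481 and 728 CPM against 192, 52.5, 103 and 169 CPM. Rnf213, a large ubiquitin ligase, was at 304, 137, 374 and 293 CPM against 68.2, 30.2, 44.8 and 81.8 CPM, and the value of OE-MLKL 1 rests on 2 UMIs.

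Hilpda, a lipid droplet protein of the hypoxia response, was the hypoxia gene that was 2-fold higher in both OE-Vector 1 and OE-MLKL 3, at 499 against 205 CPM and 190 against 39.7 CPM. It was at 68.4 against 49.3 CPM in OE-MLKL 1, on 1 UMI, and at 481 against 47.0 CPM in OE-MLKL 2. Ccl4, a chemokine of the inflammatory list, was at 3798, 1505, 1657 and 1511 CPM against 2602, 287, 376 and 820 CPM, with the smallest step in OE-Vector 1. None of these differences was tested, since the rule chose the cells.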
